A study of Mus musculus with 57 samples.

Results

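The autosomal GATA factor genes are Gata2, Gata3, Gata4, Gata5 and Gata6, 5 of the 24963 autosomal mouse genes with a curated RefSeq transcript. The rule that chose them goes by name and uses no measured value, although earlier results of these data were known when the family was picked. Gata1 lies on the X chromosome and was not analysed here. Each gene was followed in 57 chromatin immunoprecipitation sequencing (ChIP-seq) libraries of brain cortex and of gastrocnemius, a calf muscle, for 3 histone marks: H3K4me3 and H3K27ac, which lie at active genes, and H3K27me3, which is laid down by Polycomb complexes at repressed genes. All animals were PSAPP mice, a model of Alzheimer's disease that expresses a mutant human presenilin 1 and a chimeric mouse/human amyloid precursor protein carrying the Swedish mutation. They were killed at 13 months after individual housing on a modified AIN-93 diet of 11.2 kcal per day from the age of 6 months. Both sexes were used, but the sample labels do not give the sex of a library, so it was not modelled. Every mark had 9 cortex and 10 gastrocnemius libraries, and 9 mice gave both tissues. No mouse without the transgenes was studied, so the comparison below is between 2 tissues of the same transgenic animals.

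GATA factors are zinc-finger transcription factors that bind the sequence from which they take their name. Gata2 is needed by blood stem cells and is used by endothelium, mast cells and some neurons. Gata3 directs T helper and innate lymphoid cells, and acts in the inner ear, kidney, mammary epithelium and sympathetic neurons. Gata4, Gata5 and Gata6 form the other branch of the family and build heart, gut and other endoderm derived organs. Developmental regulators that are silent in a tissue often keep H3K27me3 over a CpG-rich promoter, sometimes together with H3K4me3, an arrangement known as bivalent chromatin.

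Positions are on mm10. Gata2 spans 88193891 to 88207032 of chromosome 6 on the plus strand and has 2 curated transcription start sites (TSSs) that lie 4773 bp apart. Gata3 spans 9857078 to 9878600 and Gata5 180325088 to 180334679 of chromosome 2, both on the minus strand. Gata4 spans 63198914 to 63245271 of chromosome 14 on the minus strand. Gata5os starts 1822 bp inside Gata5, and 4930412O13Rik starts 2646 bp upstream of Gata3.

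The promoter sequences below show what the marks lie on. They are the 250 bases upstream of the TSS in RefSeq on GRCm38.p6, the assembly of mm10, written 5′ to 3′ on the strand of the gene, with CpG sites in capitals. Windows are printed for 3 of the 5 genes only, and no CpG or motif count is given for the other genes of the family. The windows are chr6:88193641-88193890 and chr6:88198414-88198663 (plus strand) for the first and the second Gata2 TSS, chr2:9878601-9878850 (minus strand) for Gata3 and chr2:180334680-180334929 (minus strand) for Gata5.
Gata2 first TSS: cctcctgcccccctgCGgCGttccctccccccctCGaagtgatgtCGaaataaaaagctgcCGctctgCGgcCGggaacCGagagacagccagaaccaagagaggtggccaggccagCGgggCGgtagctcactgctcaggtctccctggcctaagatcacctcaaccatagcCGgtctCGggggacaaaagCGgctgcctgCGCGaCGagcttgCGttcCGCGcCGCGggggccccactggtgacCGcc
Gata2 second TSS: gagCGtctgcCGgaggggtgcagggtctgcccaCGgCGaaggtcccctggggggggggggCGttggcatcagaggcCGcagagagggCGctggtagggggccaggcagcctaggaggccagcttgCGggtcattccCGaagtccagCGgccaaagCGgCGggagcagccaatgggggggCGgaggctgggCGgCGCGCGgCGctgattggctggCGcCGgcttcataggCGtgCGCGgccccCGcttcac
Gata3: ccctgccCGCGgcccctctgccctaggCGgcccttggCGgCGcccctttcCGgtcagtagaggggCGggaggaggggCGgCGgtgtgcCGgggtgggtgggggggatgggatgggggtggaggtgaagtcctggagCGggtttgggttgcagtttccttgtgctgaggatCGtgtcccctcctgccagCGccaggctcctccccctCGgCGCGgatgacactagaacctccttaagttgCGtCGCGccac
Gata5: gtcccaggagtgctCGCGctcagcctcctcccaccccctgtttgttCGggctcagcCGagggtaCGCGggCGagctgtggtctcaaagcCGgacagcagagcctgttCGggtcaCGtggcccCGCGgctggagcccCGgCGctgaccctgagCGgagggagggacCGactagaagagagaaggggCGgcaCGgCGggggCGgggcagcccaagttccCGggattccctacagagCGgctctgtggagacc

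These windows held 22, 24, 19 and 22 CpG sites in the order printed, against a median of 6 over 31396 promoter windows of the same length. At least as many CpG sites as in the Gata3 window were found in 20.3% of all windows, and at least as many as in the second Gata2 window in 12.3%. Letters of the GATA binding motif were searched on both strands. None of the 4 windows held AGATAA, and neither the variant AGATAG nor the motif TGATAA was found, and the same was true of TGATAG. At least 1 of these 4 runs of letters was present in 26.4% of all windows. Their absence says only that these letters are not in these windows.

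The files list called peaks with the fragments in each, so a library without a peak gives no value rather than a true 0. The level of a mark at a TSS was taken as the fragments of the peaks within 1 kb of the first TSS, shared evenly over each peak and scaled to 1000000 fragments of the library in autosomal peaks, here written as RPM. All windows are 2 kb long, but where a peak is wider than its window the level is the mean density of the whole peak, so an order of genes by level compares averages over peaks of unequal width. Autosomal peaks held from 9025744 to 18622389 fragments in the H3K4me3 libraries, from 3903965 to 27042958 for H3K27ac and from 2994110 to 18236388 for H3K27me3. The labelled tissues matched their markers: 4 of 4 neuron markers carried more H3K4me3 in cortex, and of 5 skeletal muscle markers all carried more H3K27ac in gastrocnemius, where 4 also carried more H3K4me3 and 1 less. Rbfox3 and Snap25 had no H3K4me3 peak in gastrocnemius. Ckm, Tnnt3 and Myh4 had none in cortex, where Myh4 also had no H3K27ac peak. These were tested only through their peaks in the other tissue, so their direction was fixed in advance.

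At all 5 genes H3K4me3 was lower, and H3K27me3 higher, in cortex than in gastrocnemius. The median differences over the members were -1.75 for H3K4me3 and 0.30 for H3K27me3 on the log2 scale, where the medians over all genes tested were 0.04 and -0.03. H3K27ac was found at the TSS of Gata2 in every library, whereas Gata3, Gata5 and Gata6 had peaks of it in gastrocnemius and none in cortex, and Gata4 had 2 peaks in 10 gastrocnemius libraries. Throughout, differences are cortex minus gastrocnemius on the log2 scale, tested with edgeR over all genes, and a gene is called at a false discovery rate (FDR) under 0.1. Tissue homogenates hold many cell types, so fewer marked cells and less mark per cell cannot be told apart.

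**Figure D1:**
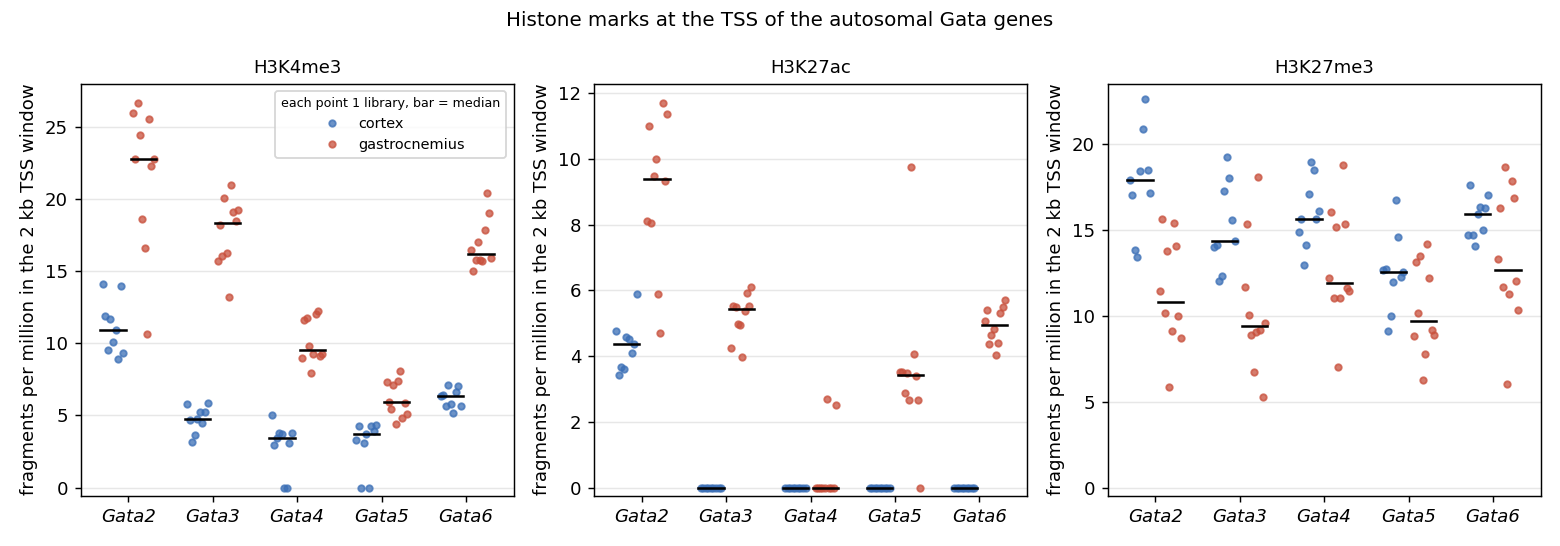
Level of H3K4me3, H3K27ac and H3K27me3 in the 2 kb window at the TSS of each gene, in RPM, on linear axes that include 0. Each point is 1 library of cortex (blue) or gastrocnemius (red), bars are medians over 9 and 10 libraries, and points at 0 had no peak. Medians were higher in gastrocnemius for H3K4me3 at all 5 genes and for H3K27ac at all but Gata4, where both were 0, and H3K27me3 medians were higher in cortex with overlapping libraries.

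H3K4me3 marks promoters at which transcription can start. At Gata2, the factor of blood stem cells and endothelium, the 9 cortex libraries had 8.91 to 14.1 RPM with a median of 10.9, and the 10 gastrocnemius libraries 10.6 to 26.7 RPM with a median of 22.8. The groups overlapped through gastrocnemius replicate 7 alone, the lowest of its group. The difference was -1.26 (SE 0.16, edgeR FDR = 8.05e-07). At its second TSS, which the same domain covered in all 9 cortex libraries, cortex had 9.91 to 15.7 RPM and gastrocnemius 17.5 to 27 RPM, and the groups did not overlap.

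Gata3, the lymphoid and epithelial factor, had 3.18 to 5.89 RPM in cortex (median 4.77) and 13.2 to 21.0 RPM in gastrocnemius (median 18.4). Every gastrocnemius library lay above every cortex library, and the difference was -2.18 (SE 0.12, edgeR FDR = 1.70e-12). Gata6, a factor of endoderm, heart and vessel wall, spans 11052510 to 11085635 of chromosome 18 on the plus strand. The antisense gene Gata6os starts 57 bp from its TSS, and ChIP-seq carries no strand, so marks at the 2 promoters cannot be told apart. Gata6 likewise had 5.17 to 7.13 RPM in cortex (median 6.38) and 15 to 20.4 RPM in gastrocnemius (median 16.2), without overlap. Its difference was -1.75 (SE 0.09, edgeR FDR = 3.53e-13).

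Gata4 and Gata5, both factors of the developing heart and gut, had the lowest levels. Gata4 had a peak in 7 of 9 cortex libraries, with a highest level of 5.04 RPM and a median of 3.43, and in all 10 gastrocnemius libraries, at 7.95 to 12.3 RPM with a median of 9.53. The difference was -2.12 (SE 0.50, edgeR FDR = 0.00122), in which libraries without a peak enter as 0, and -1.64 (SE 0.14, edgeR FDR = 1.15e-10) with uncalled windows set to a low fragment density. Gata5 also had a peak in 7 of 9 cortex libraries, with a highest level of 4.35 RPM and a median of 3.71, and in all gastrocnemius libraries, at 4.39 to 8.08 RPM with a median of 5.93. These groups stood next to each other without overlapping, and the difference of -1.35 (SE 0.55, edgeR FDR = 0.0424) likewise counts the libraries without a peak as 0. With uncalled windows at a low density it was -0.88 (SE 0.15, edgeR FDR = 2.28e-05), and it missed the threshold when every library was reduced to equally many peaks (-1.94, edgeR FDR = 0.114). Neither difference in peak calls passed Fisher's exact test (FDR = 1 for both), where 3.41% of genes were called more often in gastrocnemius. With the 25% of peaks of lowest score left out of every library, both passed (Fisher's exact test, FDR = 2.07e-04 for Gata4 and 0.0333 for Gata5), and with equally many peaks Gata4 did (FDR = 0.0323). The cortex libraries without a peak differed between the genes, replicates 6 and 7 for Gata4 and replicates 3 and 6 for Gata5.

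Thus 5 of 5 members were called lower in cortex, where 27.2% of the 16190 genes tested were called higher in gastrocnemius. Gastrocnemius lay above cortex without overlap at 4 of 5, against 6.43% of 16699 genes with a peak in any library. With library size alone in place of the factors of edgeR's trimmed mean of M values (TMM), the median of all genes moved to 0.34 and the members lay between -0.95 and -1.89, all of them called. Compared with other marked promoters these mean densities were low: in cortex the members exceeded between 3.26% (Gata4) and 13.3% (Gata2) of the genes with H3K4me3, and in gastrocnemius between 8.30% (Gata5) and 34.2% (Gata2). In gastrocnemius the order by median was Gata2, Gata3, Gata6, Gata4 and Gata5, and only Gata6 and Gata4 were neighbours whose libraries did not overlap. In cortex Gata2 stood above Gata6 without overlap, and Gata6, Gata3, Gata5 and Gata4 followed with overlapping neighbours.

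The H3K4me3 domains over the TSS were narrower in cortex at 4 of 5 genes. Gata2 carried very broad domains, of 9.20 to 13.8 kb in cortex (median 11.6 kb) and 2.80 to 16.4 kb in gastrocnemius (median 14.4 kb). Its width was not called with all libraries (limma on log2 width, -0.14, SE 0.24, FDR = 0.603), but without gastrocnemius replicate 7, where the domain was broken to 2.80 kb, it was (-0.37, limma FDR = 0.00106). The medians exceeded the width at 99.2% of marked genes in cortex and 98.7% in gastrocnemius. Gata3 domains measured 0.8 to 4.40 kb in cortex and 5 to 13.6 kb in gastrocnemius, without overlap (-1.62, SE 0.25, limma FDR = 1.21e-05). In gastrocnemius they extended a median of 6.50 kb upstream, past the start of 4930412O13Rik, against 1.60 kb in cortex.

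Gata6 domains had medians of 5.20 kb in cortex and 8.50 kb in gastrocnemius (-0.66, SE 0.14, limma FDR = 3.26e-04). Those of Gata4 (medians 1.20 and 2.70 kb, limma FDR = 0.00689) and Gata5 (1.20 and 1.70 kb, limma FDR = 0.0330) were short in both tissues. A narrower domain in cortex was common: 62.8% of all genes tested were called wider in gastrocnemius, and the median difference over all of them was -0.38.

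H3K27ac, a mark of active promoters and enhancers, separated Gata2 from the rest. At Gata2 all 9 cortex libraries had it, at 3.42 to 5.89 RPM with a median of 4.35, and all 10 gastrocnemius libraries at 4.69 to 11.7 RPM with a median of 9.39. The groups overlapped through gastrocnemius replicates 6 and 7, the lowest of that tissue, and the highest cortex value came from replicate 9, the shallowest H3K27ac library. The difference was -1.34 (SE 0.14, edgeR FDR = 8.63e-08), against a background of 24.7% of 17855 genes called higher in gastrocnemius, and -1.35 without that shallow library. At the second TSS the levels were 4.05 to 6.30 RPM in cortex and 5.88 to 11.7 RPM in gastrocnemius. The H3K27ac domain at the first TSS measured 1.4 to 13.8 kb in cortex (median 9 kb) and 2.60 to 23.8 kb in gastrocnemius (median 16.1 kb), a difference of -1.50 (SE 0.46, limma FDR = 0.00844), where 49.7% of genes were called wider in gastrocnemius. In cortex replicates 3, 6, 7 and 9, as in gastrocnemius replicate 7, it was broken to at most 2.60 kb. With peaks under 3 kb apart joined, the difference shrank to -0.25 (limma FDR = 0.0254).

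Gata3 had no H3K27ac peak at its TSS in any of 9 cortex libraries and 1 in all 10 gastrocnemius libraries, at 3.96 to 6.11 RPM with a median of 5.44. Gata6 gave the same count, 0 of 9 against 10 of 10, at 4.03 to 5.71 RPM with a median of 4.96. Both differences in peak calls reached FDR = 1.87e-04 in Fisher's exact test, which is two-sided. Gata5 had a peak in 9 of 10 gastrocnemius libraries and in 0 of 9 cortex libraries (Fisher's exact test, FDR = 0.00144), with a median of 3.44 RPM and a highest value of 9.75 RPM in replicate 6.

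Gata4 had a peak in only 2 of 10 gastrocnemius libraries, replicates 6 and 10, at 2.70 and 2.51 RPM, and in 0 of 9 cortex libraries, which did not pass the test (Fisher's exact test, FDR = 1). Hence 3 of 5 members were called, against 4.29% of 18564 genes called more often in gastrocnemius. When the 25% of peaks with the lowest scores were left out of every library, Gata5 was no longer called (FDR = 0.194). No fold is given for these genes, since the level in cortex lies at an unknown value below the threshold of the peak caller. Gata2 and these 3 genes passed the filter for the fragment test, the latter through gastrocnemius alone.

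H3K27me3 behaved in the opposite way. All 5 genes had a peak at the TSS in all 9 cortex and all 10 gastrocnemius libraries, which held for 13.8% and 12.9% of all genes. Their medians exceeded 92.5% to 99.5% of the genes with the mark in cortex and 85.2% to 99.3% in gastrocnemius. The domains are much wider than 2 kb, so the level at a TSS is the mean density of the domain over it, except for Gata3 in gastrocnemius replicates 4, 8 and 9, where 2 peaks met the window with a gap between them.

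Gata2 had 13.4 to 22.7 RPM in cortex (median 17.9) and 5.88 to 15.6 RPM in gastrocnemius (median 10.8), and its difference was 0.66 (SE 0.05, edgeR FDR = 4.41e-09). Only 4 of the libraries of gastrocnemius reached the range of cortex. Gata3 had 12 to 19.2 RPM in cortex (median 14.4) and 5.29 to 18.1 RPM in gastrocnemius (median 9.40), a difference of 0.53 (SE 0.11, edgeR FDR = 0.00109). The lowest gastrocnemius value, that of replicate 9, and the 8.90 and 9.18 RPM of replicates 4 and 8 were lowered by the gap in their windows. Gata4 had 13.0 to 19 against 7.00 to 18.8 RPM, with medians of 15.6 and 11.9, and differed by 0.30 (SE 0.04, edgeR FDR = 6.03e-04).

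Gata5 and Gata6 also had more of the mark in cortex. Gata5 had 9.10 to 16.7 RPM in cortex (median 12.5) and 6.25 to 14.2 RPM in gastrocnemius (median 9.67), a difference of 0.25 (SE 0.06, edgeR FDR = 0.0105). Gata6 had 14.1 to 17.6 RPM in cortex (median 15.9) and 6.01 to 18.7 RPM in gastrocnemius (median 12.7), a difference of 0.29 (SE 0.07, edgeR FDR = 0.00190). Library values overlapped at every gene, where 3.77% of genes had every cortex library above every gastrocnemius library, and the gastrocnemius libraries were the more spread.

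All 5 members were called higher in cortex, against 22.1% of 8795 genes tested, with 27.3% called higher in gastrocnemius. The gastrocnemius library replicate 5 had the most fragments of the mark, 18236388, over 484 Mb of autosomal peaks, where the other libraries of that tissue covered at most 306 Mb. It gave the lowest RPM of its tissue at Gata2, Gata4, Gata5 and Gata6. Without it the differences were 0.64, 0.56, 0.29, 0.27 and 0.24 in the order Gata2 to Gata6, and all remained called (largest edgeR FDR 0.0084). With the size factors of DESeq2 the median of all genes moved to 0.20 and the members to 0.49 to 0.88, all called. With library size alone those of Gata5 (0.29, edgeR FDR = 0.15) and Gata6 (0.27, edgeR FDR = 0.202) missed the threshold.

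Some libraries, 2 of cortex and 4 of gastrocnemius, carry a number of a certain form in their deposited names. It is called a run number here, but no label says what it stands for. In the remaining 7 and 6 libraries all 5 H3K4me3 differences (-1.41 to -2.36) and all 5 H3K27me3 differences (0.21 to 0.60) kept their direction and their call. These fits use TMM factors, and no fit of these libraries was made without them. In RPM, without those factors, the medians of these 7 cortex and 6 gastrocnemius libraries were 17.9 and 13.9 at Gata2 and 14.2 and 10.8 at Gata3, higher in cortex. They lay close together at Gata4 (15.6 and 15.3 RPM) and Gata5 (12.66 and 12.69 RPM), and at Gata6 the cortex median was the lower (15 and 16.6 RPM). In the 2 cortex and 4 gastrocnemius libraries with a run number the cortex median was the higher at all 5 genes, from 12.4 against 8.35 RPM at Gata5 to 17.8 against 8.91 RPM at Gata2.

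**Figure D2:**
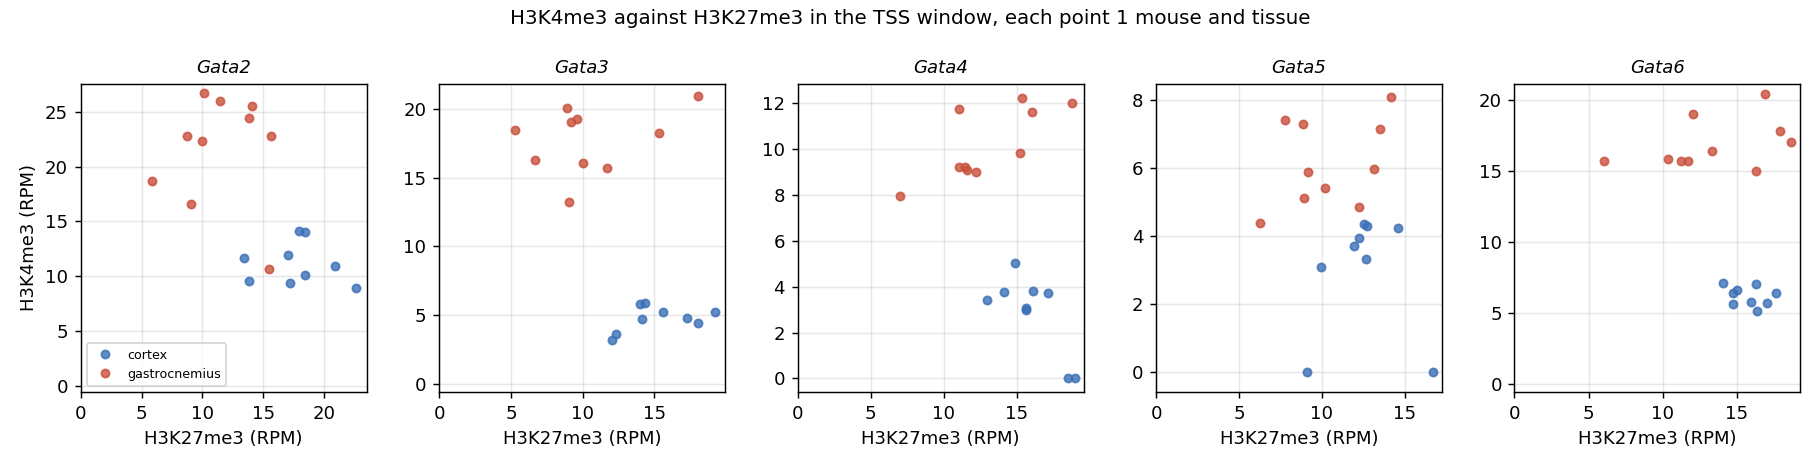
H3K4me3 (vertical axis, RPM) against H3K27me3 (horizontal axis, RPM) in the 2 kb window at the TSS of each gene. Each point is 1 mouse and tissue, cortex in blue and gastrocnemius in red, and points at 0 on the vertical axis had no H3K4me3 peak. Apart from gastrocnemius replicate 7 at Gata2, the gastrocnemius points lie above the cortex points on the H3K4me3 axis, while on the H3K27me3 axis the tissues overlap.

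The 2 methylation marks lay together at these promoters. A peak of each was present within 1 kb of the TSS in all 9 cortex mice for Gata2, Gata3 and Gata6 and in 7 of 9 for Gata4 and Gata5, and in all 10 gastrocnemius mice for all 5 genes. Both peaks were found in every mouse at 6.93% of all genes in cortex, 6.67% in gastrocnemius and 3.39% in both tissues. In the median mouse 100% of the H3K4me3 domain lay inside the H3K27me3 domain at every gene and in both tissues. The lowest share was 64.0%, at Gata2 in gastrocnemius. Peaks of a tissue homogenate can share a position without sharing a nucleosome or a cell.

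The share of the H3K27me3 domain that also carried H3K4me3 differed between the genes. At Gata2 it was 53.1% in cortex and 52.0% in gastrocnemius (medians over mice). At Gata6 it was 24.1% and 62.2%, and at Gata3 6.16% and 27.9%. At Gata5 it was 4.84% and 13.7%, and at Gata4 2.27% and 5.59%, so that these were almost wholly H3K27me3 domains with a short H3K4me3 peak at the start. No test was made of these shares.

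The H3K27me3 domains were wider in cortex at Gata3, Gata5 and Gata6. At Gata3 they measured 27 to 55.2 kb in cortex (median 52.0 kb) and 14.2 to 52.2 kb in gastrocnemius (median 27 kb), a difference of 0.61 (SE 0.22, limma FDR = 0.0287). The domain reached a median of 31.6 kb upstream of the TSS in cortex and 13.9 kb in gastrocnemius. At Gata5 the widths were 18.4 to 57 kb in cortex (median 27.6 kb) and 9.20 to 20.6 kb in gastrocnemius (median 13.8 kb), with a difference of 1.13 (SE 0.22, limma FDR = 2.65e-04; 2.80 with peaks under 3 kb apart joined), and only cortex replicate 6, the narrowest, fell into the range of gastrocnemius.

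Gata6 domains had medians of 18 and 13.5 kb (0.47, SE 0.19, limma FDR = 0.0536), and this call was lost when peaks under 3 kb apart were joined (0.21, limma FDR = 0.549). At Gata4, where medians were 52.0 and 48.9 kb, the difference was 0.25 with an SE of 0.25 (limma FDR = 0.419). At Gata2 they were 24.6 and 27.9 kb, a difference of -0.17 with an SE of 0.14 (limma FDR = 0.320), which passed as wider in gastrocnemius once peaks under 3 kb apart were joined (-0.70, limma FDR = 0.0860). For comparison 23.5% of all genes were called wider in cortex and 32.5% wider in gastrocnemius, with a median difference of -0.26. That background moved with the libraries: the median was -0.05 without gastrocnemius replicate 5, and 0.24 in the libraries without a run number, where 2148 genes were called wider in cortex and 1966 in gastrocnemius. At Gata2 the level at the TSS was thus higher in cortex without a wider domain.

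**Figure D3:**
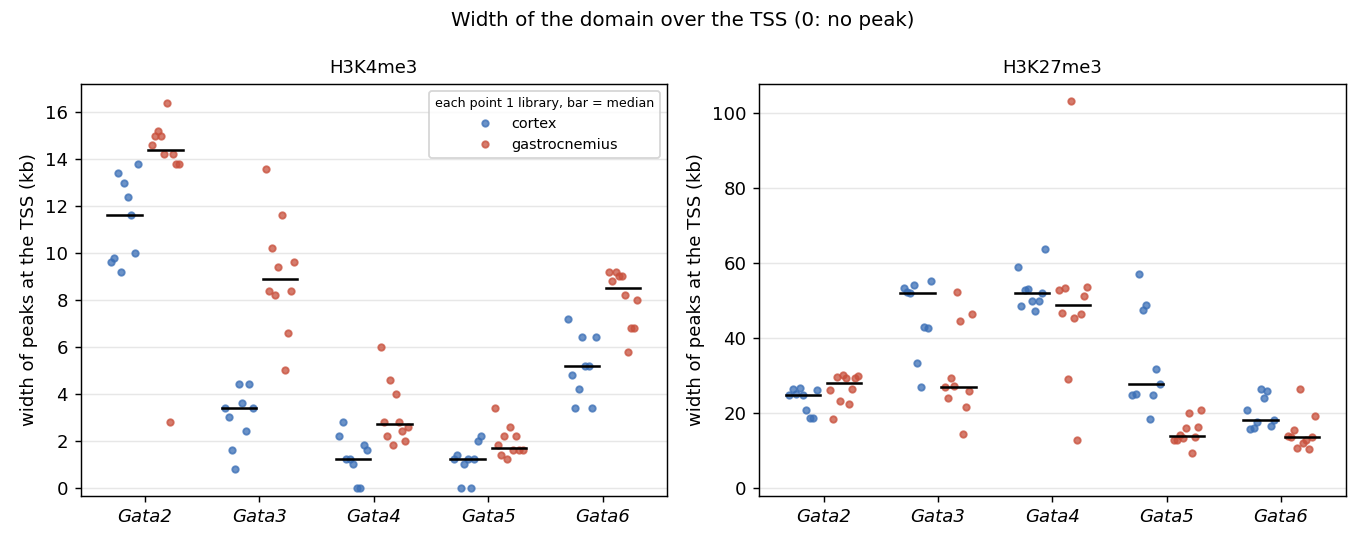
Summed width in kb of the peaks within 1 kb of the TSS for H3K4me3 (left) and H3K27me3 (right), on linear axes. Each point is 1 library of cortex (blue) or gastrocnemius (red), bars are medians, and 0 means no peak. The H3K27me3 median of Gata3 was 52.0 kb in cortex and 27 kb in gastrocnemius, and the highest point is the 103 kb domain of Gata4 in gastrocnemius replicate 5.

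Over the gene bodies H3K27me3 was higher in cortex at all 5 genes, against 28.6% of 10226 genes tested. The largest difference was that of Gata5, 0.88 (SE 0.17, edgeR FDR = 2.41e-04), where the median level per kb of gene was 6.26 RPM in cortex and 3.07 RPM in gastrocnemius. Its whole span was covered in all 9 cortex libraries, whereas coverage in gastrocnemius ran from 36.3% to 100% with a median of 76.5%. At Gata3 the level was 5.57 to 8.19 RPM per kb in cortex and 3.18 to 4.98 in gastrocnemius, without overlap, and the difference was 0.73 (SE 0.07, edgeR FDR = 1.29e-07).

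Gata2 (0.68, SE 0.10, edgeR FDR = 1.17e-05) and Gata6 (0.65, SE 0.14, edgeR FDR = 8.77e-04) differed by similar amounts. The Gata2 span lay wholly under the mark in all 9 cortex libraries and to at least 93.9% in gastrocnemius. Gata4 showed the smallest difference, 0.19 (SE 0.07, edgeR FDR = 0.0236), with a median of 86.2% of the gene covered in cortex and 88.6% in gastrocnemius. Its call was lost with library size alone (edgeR FDR = 0.144), with equally many peaks (0.196) and in the libraries without a run number (0.177).

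H3K4me3 covered a median of 90.6% of Gata2 in cortex and 99.9% in gastrocnemius, at 5.06 and 12.4 RPM per kb of gene (-1.26, SE 0.08, edgeR FDR = 4.55e-12), and the groups did not overlap. H3K27ac covered the same share of Gata2 in the median cortex library and 100% in gastrocnemius, at 2.0 and 4.87 RPM per kb (-1.20, SE 0.11, edgeR FDR = 7.97e-09), also without overlap. Over gene bodies 34.0% of genes for H3K4me3 and 34.4% for H3K27ac were called higher in gastrocnemius. In the 4 other genes H3K4me3 kept to the start of the gene: in medians it covered 6.50% and 11.2% of Gata3, 8.73% and 13.3% of Gata6, 9.16% of Gata5 in each tissue and 1.02% and 2.53% of Gata4. Their summed body counts are not compared, since they depend on how uncalled stretches are filled. At Gata4 and Gata5 the sign turned when libraries without any peak in the gene were given a floor over its whole length. Uncalled stretches of the other libraries were left empty in that setting.

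**Figure D4:**
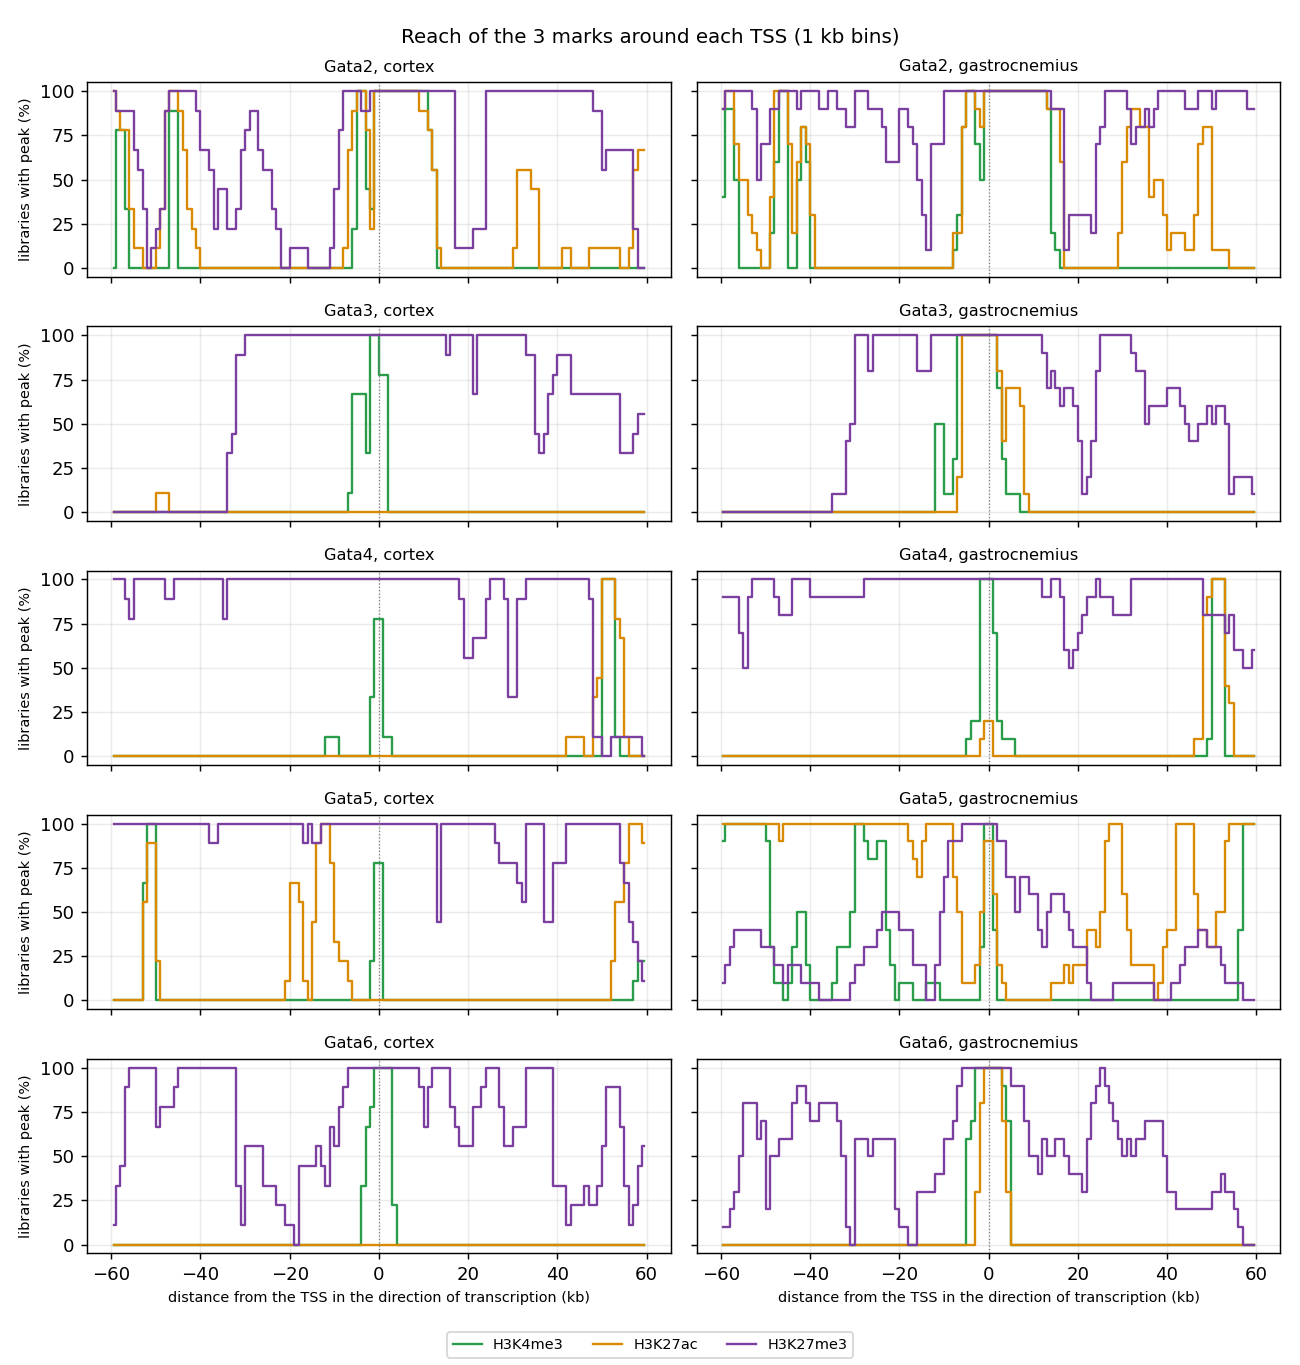
Share of libraries (percent, vertical axis) with a peak of H3K4me3 (green), H3K27ac (orange) or H3K27me3 (purple) in each 1 kb bin from 60 kb upstream to 60 kb downstream of the TSS, in the direction of transcription (horizontal axis). The left column is cortex (9 libraries) and the right column gastrocnemius (10 libraries). Upstream of Gata5 the cortex panel is filled by H3K27me3, with H3K27ac in shorter stretches, and the gastrocnemius panel is filled by H3K27ac.

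The surroundings of Gata5 differed between the tissues, an observation made after the profiles were seen and not tested as a region. At 30.5 kb upstream of its TSS an H3K27me3 peak was present in 9 of 9 cortex and 1 of 10 gastrocnemius libraries. At the same place H3K27ac was present in 0 of 9 cortex and 10 of 10 gastrocnemius libraries. The gene Mir1a-1hg, host of a microRNA abundant in muscle, starts 50.9 kb upstream of Gata5, and is 1 of 5 curated genes that start within 60 kb. At its TSS H3K27me3 had a peak in 9 of 9 cortex and 4 of 10 gastrocnemius libraries (Fisher's exact test, FDR = 0.0498, where 10.2% of genes were called more often in cortex), while H3K4me3 had medians of 8.64 RPM in cortex and 31.1 RPM in gastrocnemius (-2.13, SE 0.12, edgeR FDR = 1.92e-12). At Rbbp8nl, 44.8 kb downstream, H3K27me3 was found in 9 of 9 cortex and 3 of 10 gastrocnemius libraries, and H3K27ac in 0 of 9 and 10 of 10. In gastrocnemius replicate 6 the H3K27ac peak over the Gata5 TSS was joined to the upstream stretch, was 84.8 kb wide and reached 83.1 kb upstream, where the other 8 libraries with a peak had 1.4 to 5.2 kb. The 9.75 RPM of that library at the TSS is the mean density of this wide peak.

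Gata2 had active marks beyond its promoter in both tissues. At 46.5 kb upstream H3K27ac was present in 9 of 9 cortex and 10 of 10 gastrocnemius libraries, H3K4me3 in 8 of 9 and 10 of 10, and H3K27me3 in all. Downstream of the gene, at 33.5 kb, H3K27ac was found in 5 of 9 cortex and 9 of 10 gastrocnemius libraries and H3K4me3 in none. The H3K27me3 domain over Gata2 ended at nearly the same place downstream in every cortex library, 16.5 to 16.9 kb from the TSS, and varied more on its upstream side, from 1.89 to 10.1 kb.

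Around Gata3, H3K27me3 was the prevailing mark in both tissues. At 20.5 kb upstream, beyond the median reach of the gastrocnemius domain, it was present in 9 of 9 cortex and 10 of 10 gastrocnemius libraries. With peaks under 3 kb apart joined, the difference in width was 0.67 (limma FDR = 0.0104). At 31.5 kb the mark was present in 8 of 9 cortex and 4 of 10 gastrocnemius libraries. Dnajb8, 28.4 kb downstream of Gata2, had H3K27me3 and neither active mark in every library of both tissues. It and Neil2 were the only curated neighbours within 60 kb of Gata2 and Gata4. Neil2, a DNA repair gene 51.7 kb downstream, had H3K4me3 in every library of both tissues, at medians of 29.8 RPM in cortex and 14.7 RPM in gastrocnemius. Its TSS had H3K27me3 in 1 of 9 cortex and 8 of 10 gastrocnemius libraries.

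Outside the family, the genes nearest to a member in its TSS levels of all 3 marks over the 57 libraries were found by the root mean square distance in log2(RPM + 1). For Gata2 they were Tal1 (0.37), Adcy4 (0.38) and She (0.41), of which Tal1 encodes a blood and endothelial factor that binds DNA together with GATA factors. For Gata3 they were Osr2 (0.32), Tmem30b (0.33) and Ebf2 (0.33), and for Gata6 they were Osr2 (0.22), Ebf2 (0.30) and Shox2 (0.34). Gata3 and Gata6 lay 0.31 apart, nearer than any other pair of members and, for Gata3, nearer than Osr2, with Gata2 and Gata4 farthest apart at 1.85. Gata4 had Tfap2a (0.55), Pax9 (0.58) and Barhl2 (0.60) as its nearest genes, and Gata5 had Septin9 (0.63), Lvrn (0.65) and E330013P04Rik (0.67).

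Genes that work with GATA factors were described from lists, by counts of the TSS test, in which a gene can pass the filter through 1 tissue alone. They are to be read against all genes tested, of which 22.1% were called higher and 27.3% lower in cortex for H3K27me3, 32.1% higher and 27.2% lower for H3K4me3, and 31.6% higher and 24.7% lower for H3K27ac. Of 9 heart partners, 7 were tested for H3K27me3 and 6 were called higher in cortex and 0 lower, Isl1 by 0.53 (edgeR FDR = 3.92e-08) and Hand2 by 0.68 (2.73e-06). Of 7 endoderm partners all were tested, with 5 higher and 0 lower, Sox17 by 0.67 (edgeR FDR = 9.93e-10) and Cdx2 by 0.55 (6.62e-09). The median differences of these lists were 0.39 and 0.36. For H3K4me3 the heart list had 2 genes higher and 2 lower of 7 tested, while the endoderm list had 0 higher and 4 lower of 5. For H3K27ac, 2 of 4 heart partners tested were higher and 1 lower in cortex, and 2 of 2 endoderm partners were lower.

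The 11 FOG cofactors and partners of the blood complex had 6 genes tested for H3K27me3 (all genes 22.1% higher, 27.3% lower), with 3 higher in cortex, Tal1 by 0.27 (edgeR FDR = 0.00801), and 1 lower. H3K4me3 was lower in cortex at 4 of the 9 tested and higher at 0, Tal1 by -1.59 (edgeR FDR = 1.39e-10) and Lyl1 by -1.51 (4.17e-08), and H3K27ac was lower at 5 and higher at 2 of 8. The shares of all genes were 32.1% higher and 27.2% lower for H3K4me3 and 31.6% and 24.7% for H3K27ac. Of 11 partners in GABAergic and serotonergic neurons, 8 were higher and 1 lower for H3K27me3, 4 higher and 5 lower of 9 for H3K4me3, and 4 higher and 3 lower of 8 for H3K27ac. Of 7 autosomal lymphoid partners, 3 were higher and 2 lower for H3K27me3, 1 higher and 3 lower of 4 for H3K4me3, and 2 each way of 5 for H3K27ac.

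The 9 genes that hold a GATA-type zinc finger but are not GATA factors, such as Mta1 and Gatad2a of the nucleosome remodelling complex NuRD, had no H3K27me3 peak at the TSS in any library. Of these, 4 were called higher and 1 lower in cortex for H3K4me3 among 8 tested, and 1 higher and 2 lower among 9 for H3K27ac. Of other families of developmental factors, 11 of 14 T-box genes tested and 8 of 9 PAX genes were higher in H3K27me3 in cortex and 0 lower, with medians of 0.40 and 0.34. For H3K4me3, 3 T-box genes were higher and 9 lower of 12, and 0 PAX genes were higher and 5 lower of 7. Tbx5 and Tbx20 stand in both the heart and the T-box list, and Tbx21 in the lymphoid and the T-box list. For H3K27ac the counts were 1 higher and 8 lower of 10 T-box genes, and 1 each way of 2 PAX genes. No difference between the GATA genes and these families was tested.

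Markers of endothelium, of fibroblasts and of smooth muscle and pericytes moved with the members in H3K4me3, and those of other types, given below, did not all do so. Of all genes tested, 27.2% for H3K4me3 and 24.7% for H3K27ac were called lower in cortex. All 6 endothelial markers carried less H3K4me3 in cortex, with a summed level of 43.2 to 55.1 RPM against 80.1 to 124 RPM in gastrocnemius, and all 6 carried less H3K27ac (16.3 to 22.9 against 30.1 to 48.5 RPM). The 3 fibroblast markers (8.26 to 18.5 against 25.4 to 40.0 RPM) and the 4 markers of smooth muscle and pericytes (14.4 to 22.8 against 22.3 to 36.1 RPM) were likewise called lower in cortex for H3K4me3. None of these 13 markers was without an H3K4me3 peak in all libraries of a tissue. The part of these cell types in the differences of the members was not tested.

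Of the T cell markers Cd3e, Cd3g and Cd2 none had an H3K4me3 peak in any library, and of the 4 mast cell markers only Kit had a peak. Against 32.1% of all genes called higher in cortex for H3K4me3, 3 of 4 markers of leukocytes and microglia were tested and all 3 called higher there (summed level 2.77 to 13.6 against 0 to 2.26 RPM). Of 3 adipocyte markers 1 was tested and higher in gastrocnemius (0 against 14.7 to 28.5 RPM), all 3 lacking a peak in cortex. Of 3 astrocyte markers 2 were tested and 1 was higher in cortex (18.4 to 28.2 against 14.3 to 21.4 RPM), and all 3 oligodendrocyte markers were higher in cortex (47.0 to 61.0 against 19.9 to 35.0 RPM). Ptprc, Itgam, Gfap and Mog had no H3K4me3 peak in any gastrocnemius library. They and the adipocyte marker tested passed the filter through 1 tissue alone, so their direction was fixed in advance. For H3K27me3, with 22.1% of all genes called higher and 27.3% lower in cortex, 3 of 4 skeletal muscle markers tested, 2 of 3 fibroblast markers and 2 of 3 T cell markers were called higher in cortex and 0 lower, the direction of the members. Lower in cortex were 1 of 4 neuron, 1 of 3 oligodendrocyte, 1 of 3 leukocyte and microglia and 1 of 2 adipocyte markers tested, with 0 higher, a single gene of each list. Tnnt3, Myh4 and Dcn had no H3K27me3 peak in any gastrocnemius library, and Mog, Aif1 and Plin1 had none in cortex. Those of them that were tested passed the filter through 1 tissue alone, so their direction was fixed in advance. No call in either direction was made among 4 endothelial, 4 smooth muscle and pericyte, 2 astrocyte and 2 mast cell markers tested.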

How the data were processed

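Per the labels and the study's methods, the authors sequenced 57 ChIP-seq libraries (51 bp paired-end) of 3 marks, removed duplicates and reads of mapping quality under 1, and called peaks in each library with epic2 (windows of 200 bp, FDR under 0.05, gaps of 3 windows in H3K27me3 and of 2 otherwise). The submitters' processing notes name BWA, SAMtools and mm10. The authors deposited for each peak a count of fragments (15 or more per peak) and the score of the peak caller, which was used here only to rank peaks. Read depth outside peaks is therefore unknown, and differences below the peak threshold cannot be seen. The SEs of the fits take in the spread between libraries. A peak call also depends on depth.

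The members and the gene lists were chosen with earlier results of these data known. The TSS was the 5′ end of the span of the curated RefSeq transcripts of a gene. The start of the full gene record, predicted transcripts included, was an alternative chosen after seeing the data, as was leaving out single libraries that stood apart. Counts of a peak were shared over a window by overlap, rounded and tested with edgeR 4.0.16 (quasi-likelihood test, TMM factors on fragments in the peaks of 19 autosomes) in R 4.3.3, over all genes with a peak in at least 3 libraries of a tissue. Peak calls were compared with two-sided Fisher's exact tests (R 4.3.3) over genes with any peak, and log2(width + 200 bp) of TSS domains with limma 3.58.1. All p-values were Benjamini-Hochberg adjusted over all genes of a mark, with calls at an FDR under 0.1. DESeq2 1.42.0 was an alternative. Tests were checked on simulated data.

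The named genes were the members, the lists, the curated neighbours within 60 kb and the 3 genes nearest to each member in TSS levels. Genes within 2 kb of a member were left out of the latter. Animal tags in the deposited names pair 9 mice. Deviations from the tissue means of samples from the same animal had median correlations of 0.006, 0.013 and 0.025 for H3K4me3, H3K27ac and H3K27me3, none above 0.1. No 2 libraries held the same values. Samples of a group are labelled as separate mice.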

Additional observations from a re-analysis of the deposited data

Results flagged for a closer look

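Of 66 groups of TSS levels, domain widths and gene body levels, 4 were flagged for a library far from its group by Dixon's criterion. Chance flags about 1 in 20 groups. Only groups with a peak in every library were entered, with 1 exception, the H3K27ac width of Gata5 in gastrocnemius. That group was added by hand and is 1 of the 4, so the number of flags is not to be read against the chance rate. All 4 were domain widths in gastrocnemius. The H3K4me3 domain of Gata2 was 2.80 kb wide in replicate 7 and 13.8 to 16.4 kb in the other libraries. The H3K27ac domain of Gata2 was 2.60 kb wide in replicate 7 of that mark and 13.6 to 23.8 kb in the others. The H3K27me3 domain of Gata4 was 103.2 kb wide in replicate 5, the library with the most fragments, and 12.6 to 53.6 kb in the others. The H3K27ac domain of Gata5 was 84.8 kb wide in replicate 6 and 1.4 to 5.2 kb in the other libraries with a peak.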

How the results depend on the processing

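Of 137 alternatives for counts of genes called, 136 lay within 1.5 times the main count. The exception was H3K27me3 peak calls at the TSS, with 1479 genes in the libraries without a run number against 2566. Of 510 alternatives for the members, 488 kept direction and call, 14 lost the call, 6 gained 1 and 2 reversed. The reversed ones were H3K4me3 over the bodies of Gata4 (2.0) and Gata5 (0.89), where the main values were -2.21 and -1.12. Their setting gave libraries without a peak in the gene a low fragment density over its whole length. Uncalled stretches of the other libraries stayed empty. Under that setting the difference of Gata3 was -0.74 (edgeR FDR = 0.292). For Gata5 that body difference was also lost with equally many peaks, libraries without a run number, library size alone and without gastrocnemius replicate 7. With the animal as a replicate block 33 of 33 member results kept direction and call, and H3K27me3 gave 3213 genes called at the TSS against 4353. With title numbers as the block, which name the same animal for 4 of 9, 1 of 22 member results was lost, H3K4me3 over Gata5 (-1.46, edgeR FDR = 0.12). When the weakest 25% of peaks by score were dropped, the H3K4me3 peak calls of Gata4 (Fisher's exact FDR = 2.07e-04) and Gata5 (0.0333) differed. The share of calls higher in cortex moved with library size alone from 54.2% to 78.7% for H3K4me3 and from 56.1% to 79.4% for H3K27ac, and with DESeq2 size factors from 44.8% to 56.0% for H3K27me3. The causes were not tested.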
